A study of Mus musculus with 8 samples.

Results

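Inner peaks of very long genes are CLIP peaks that lie deep inside autosomal protein-coding genes whose RefSeq span on mm10 is 300 kb or more. A peak was included if its midpoint lay at least 1000 nt from either end of the span and in the span of no other gene, and 1 such gene was left out by the rule. This position is a proxy for nascent intronic RNA, because exons fill little of genes this long, although exons were not annotated here. The 7 peak lists held 77386 such peaks among 978429 called peaks. The rule used position alone and no measured value. At the edge of the rule, Zfp423 (300244 nt) and Jazf1 (300560 nt) were just inside. Zfp423 had 1 inner peak in the knockout and 0 in each control, and Jazf1 had 77 in the knockout and 75, 78 and 36 in the controls. Akap13 (299084 nt) was just outside, with 45 in the knockout and 18, 25 and 24 in the controls.

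CLIP (crosslinking and immunoprecipitation) for Zmat3 was done in mouse embryonic fibroblasts that all carried E1A and HrasG12V retroviruses. The knockout group was 1 Zmat3-/- fibroblast line with no guide RNA, and the control group was 3 Cas9+ lines that each carried a different negative-control guide RNA (EV in control 1, SPA in control 2, ACOCA in control 3). Each line gave an anti-Zmat3 immunoprecipitate (IP) and an input, 8 samples in all. The authors deposited 4 lists of IP over input and 3 lists of each control IP over the knockout IP. In the last 3, a positive log2 fold means a higher value in the control than in the knockout. The knockout differed from the controls in line, Cas9 and guide as well as in Zmat3, and with 1 knockout line these differences cannot be told apart. The labels do not say whether the 3 control lines came from separate embryos, so the spread between them may be partly technical.

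Zmat3 is a zinc finger protein that binds RNA, and its gene is a transcriptional target of p53. RNA polymerase needs hours to cross the longest mammalian genes, so their pre-mRNA is present as growing chains that are mostly intron. Crosslinked RNA from such introns can be recovered by a protein that binds pre-mRNA in the nucleus, and also as background of an antibody. The knockout IP holds the part of the signal that does not need Zmat3.

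Of 8 fibroblast markers, Fn1, which encodes fibronectin, had 79 called peaks in the knockout and 70, 74 and 59 in controls 1 to 3. Vim, which encodes the intermediate filament protein vimentin, had 21 in the knockout and 15, 18 and 13 in the controls. Pdgfrb, a growth factor receptor gene, went the other way with 2 in the knockout and 16, 12 and 10 in the controls. Col3a1 had 0 in the knockout and 0, 1 and 0 in the controls. Col1a1, Col1a2, Thy1 and S100a4 had 0 in all 4 IPs. All 4 leukocyte, 3 endothelial and 3 muscle markers also had 0 in all 4 IPs. Epithelial markers had 19 peaks in the knockout and 9, 10 and 12 in the controls, including Epcam with 10, against 9, 5 and 11. Neuronal markers had 0 in the knockout and 9, 10 and 4 in the controls, mostly in Map2. The part of these other genes in the results below was not tested.

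Sequence under the peaks could be read only where a site lay upstream of an alternative start inside a long gene, in the RefSeq promoter windows (GRCm38.p6). A site is a run of overlapping or adjacent peaks on the same strand, merged over the 4 IPs. Of all sites in long genes, 38 overlapped such a window of their own gene and strand, and 16 lay wholly within the 250 bases before the start. Both sites of these 16 that were called in more than 1 IP are shown, with the site in capitals and the surrounding window in lower case, 5′ to 3′ on the gene's strand. The Apbb2 site at chr5:66337758-66337846 on the minus strand was called in all 4 IPs, and the Dst site at chr1:34011512-34011554 on the plus strand was called in the knockout and control 1.
Apbb2: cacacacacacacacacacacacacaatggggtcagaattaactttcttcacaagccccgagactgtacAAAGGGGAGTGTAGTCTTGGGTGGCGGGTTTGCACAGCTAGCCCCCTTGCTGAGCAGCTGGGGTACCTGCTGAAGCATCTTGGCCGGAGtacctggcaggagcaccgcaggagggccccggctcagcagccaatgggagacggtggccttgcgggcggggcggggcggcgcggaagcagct
Dst: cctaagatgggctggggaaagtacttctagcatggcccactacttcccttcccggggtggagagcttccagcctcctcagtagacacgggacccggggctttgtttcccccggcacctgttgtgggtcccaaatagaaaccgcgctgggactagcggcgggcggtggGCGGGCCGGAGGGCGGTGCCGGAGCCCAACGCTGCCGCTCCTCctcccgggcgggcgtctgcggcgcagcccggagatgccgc
The Apbb2 site, in a gene for an adaptor of the amyloid precursor protein, ended 92 bases before the start. Its T content was 22.5%, against a median of 23.2% over all 32851 promoter windows. Over input, its log2 fold reached 1.82 in the knockout and 0.90, 2.60 and 1.18 in controls 1 to 3, with the knockout inside the control range. Against the knockout IP the 3 controls had −0.99, −0.58 and −1.0, so all 3 lay below the knockout. The Dst site had a T content of 9.30% and a log2 fold over input of −0.18 in the knockout and 0.80 in control 1.

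The part of called peaks that came from long genes was larger in the knockout than in each control. Inner peaks of long genes numbered 15970 of 167648 called peaks in the knockout, and 10366 of 129323, 10979 of 153768 and 9363 of 122284 in controls 1 to 3. Their share was 9.53% in the knockout, against 8.02%, 7.14% and 7.66% in the controls, a mean of 7.60% ± 0.44 (SD, n = 3). The knockout lay above all 3 controls, by 1.92 percentage points. An exact two-sided permutation test over libraries gave p = 0.25, the smallest that 1 against 3 allows, so no such comparison here can pass 0.05. Genes of 100 to 300 kb moved the same way, at 24.8% in the knockout and 22.2% ± 0.547 in the controls (SD, n = 3). Genes under 30 kb moved the other way, at 15.4% in the knockout and 17.9% ± 0.557 in the controls (SD, n = 3). The lists hold no read counts, so depth is unknown. More binding and more RNA from a gene cannot be told apart in these bulk samples, nor can fewer cells and less RNA per cell.

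**Figure D1:**
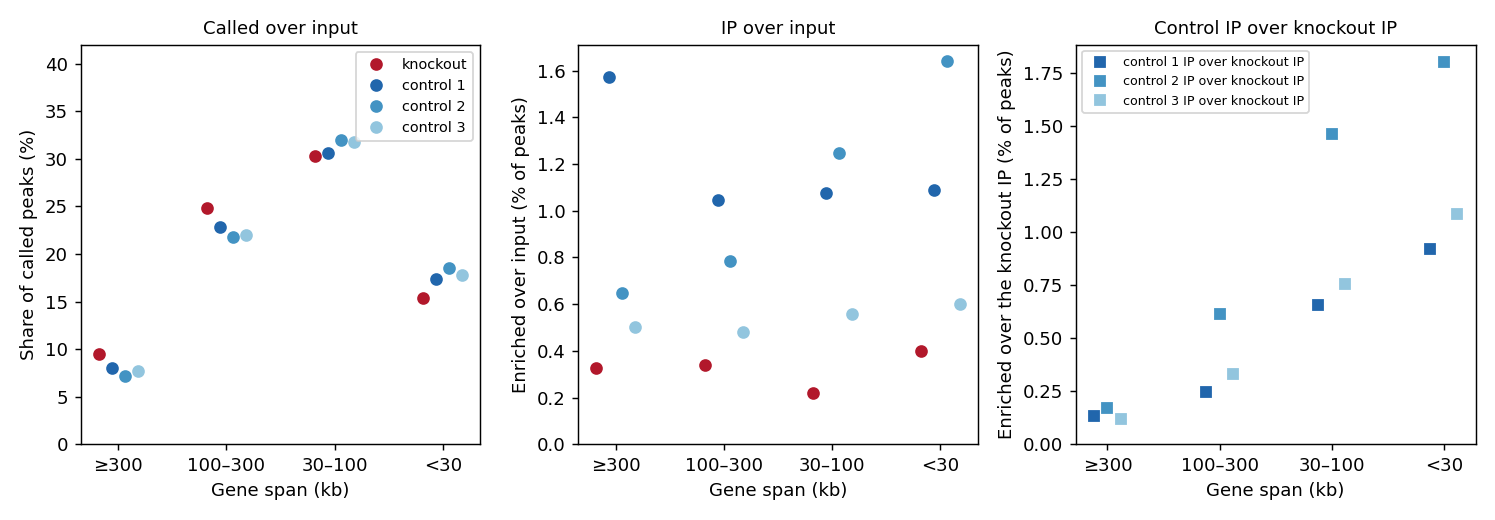
Share of called peaks, share of peaks enriched over input and share enriched over the knockout IP (y axes, percent), for inner peaks of genes in 4 bands of span (x axis, kb). Each point is 1 list. The knockout has the highest share of called peaks at 300 kb or more (9.53%), and the share enriched over the knockout IP is lowest there in all 3 controls (0.135%, 0.173% and 0.117%).

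Of 531 long genes, 277 had an inner peak in at least 1 IP, 161 had them in all 4 IPs, and 254 had none. Genes with a peak numbered 237 in the knockout and 197, 229 and 179 in controls 1 to 3. The 10 genes with most peaks in each IP held 22.7% of the inner peaks in the knockout and 26.9%, 23.9% and 27.6% in the controls. The 12 genes with most peaks over the 4 IPs encode proteins of many roles, and their order differed between lines.

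The largest number was in Wwox (chromosome 8, 114439635–115352712), which encodes an oxidoreductase with WW domains at a common fragile site. It had 467 peaks in the knockout and 435, 203 and 364 in controls 1 to 3. Gse1, which encodes a chromatin-associated coiled-coil protein, had 451 in the knockout and 400, 198 and 369 in the controls. In both genes control 2 was lowest by count and by share of called peaks, and the knockout share lay within the control range. Exoc4, a subunit of the exocyst that tethers secretory vesicles, had 442 in the knockout and 158, 352 and 108 in the controls. Mast4, a microtubule-associated kinase, had 294 in the knockout and 123, 304 and 110 in the controls. In Exoc4 and Mast4, control 2 lay far above the other controls and near the knockout.

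Maml3 (chromosome 3, 51687320–52105319), which encodes a coactivator of Notch transcription complexes, had 271 peaks in the knockout and 340, 350 and 319 in controls 1 to 3. As a share this was 162 per 100000 called peaks in the knockout and 250 ± 19.8 in the controls (SD, n = 3), with the knockout below all 3. Msi2, a Musashi RNA-binding protein, had 209 in the knockout and 286, 183 and 237 in the controls. Its knockout share lay between controls 2 and 3. Smyd3, a lysine methyltransferase, had 260 in the knockout and 294, 187 and 259 in the controls. Rere, a transcriptional corepressor, had 301 in the knockout and 234, 235 and 241 in the controls, which as a share lay inside the control range.

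Dst, which encodes the cytoskeletal linker dystonin, had 282 peaks in the knockout and 191, 238 and 203 in controls 1 to 3. Dock1, an activator of the Rac GTPase, had 301 in the knockout and 174, 191 and 178 in the controls. Both shares were highest in the knockout, at 168 and 180 per 100000 called peaks, against control means of 156 ± 9.24 and 135 ± 10.7 (SD, n = 3). Frmd4a, a FERM-domain scaffold of cell polarity, had 291 in the knockout and 142, 285 and 201 in the controls. Magi1, a scaffold at cell junctions, had 253 in the knockout and 172, 244 and 157 in the controls, and both shares lay within the control range.

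Long genes with many peaks were more often above all controls than below all controls in the knockout. Among the 118 long genes with at least 30 inner peaks in 1 IP, the knockout share lay above all 3 controls in 56 (47.5%) and below all 3 in 16 (13.6%). Over all 1446 genes with as many inner peaks, 33.2% lay above and 27.0% below. Among the 1328 of these under 300 kb, 31.9% lay above and 28.2% below. This filter used raw counts, and the knockout list is the longest, so genes could pass through the knockout alone. Such genes favour a knockout share above the controls, so these counts are descriptions and not a test. The following genes were picked after their values were seen, to show wide gaps.

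The gap towards lower counts in the knockout was wide in Grip1, which encodes a scaffold protein for glutamate receptors. It had 9 peaks in the knockout and 163, 168 and 194 in controls 1 to 3, and the control mean share was 24.5 times that of the knockout. Setbp1, whose product binds the SET nuclear protein, had 6 in the knockout and 104, 58 and 69 in the controls, a ratio of 16.3. Dis3l2, an exoribonuclease of uridylated RNA, had 7 in the knockout and 36, 26 and 31 in the controls. Zfp536, a zinc finger gene, had 0 in the knockout and 120, 13 and 67 in the controls. Rims2, a presynaptic scaffold gene, had 27 in the knockout and 73, 69 and 59 in the controls. Tnik, a kinase linked to Wnt signalling, had 31 in the knockout and 58, 113 and 73 in the controls. In all 6 genes the knockout was below every control.

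In these genes the inner peaks also stood higher against the knockout IP. The median log2 fold over the knockout IP was 2.18, 1.88 and 2.17 in Grip1 for controls 1 to 3. It was the same in Setbp1 and in Dis3l2. Over all inner peaks of long genes it was 1.18, 0.88 and 1.17. The values 2.18, 1.88 and 2.17 were also the most common single values among inner peaks of long genes in these lists. Over input the median in Grip1 was 1.31, 1.02 and 1.18 in the controls, equal to that over all inner peaks of long genes. These genes were picked for few knockout peaks, so higher folds over the knockout IP follow in part from that choice. The counts and these folds share the knockout library.

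Other genes had more peaks in the knockout. Mecom, which encodes the transcription factor Evi1, had 411 peaks in the knockout and 142, 153 and 114 in controls 1 to 3, a ratio of shares of 2.43. Cdk14, a cyclin-dependent kinase gene, had 363 in the knockout and 68, 104 and 88 in the controls, a ratio of 3.38. Runx2, the master transcription factor of osteoblasts, had 162 in the knockout and 28, 48 and 22 in the controls. Prkcb, a protein kinase C gene, had 195 in the knockout and 30, 59 and 30 in the controls. Thsd7a, which encodes a membrane protein with thrombospondin repeats, had 151 in the knockout and 6, 20 and 7 in the controls. Auts2 and Dach1, both nuclear regulators of transcription, had 40 and 39 in the knockout and 0 in each control. Pcdh7, a protocadherin gene, had 221 in the knockout and 2, 93 and 0 in the controls, so that control 2 again stood apart.

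**Figure D2:**
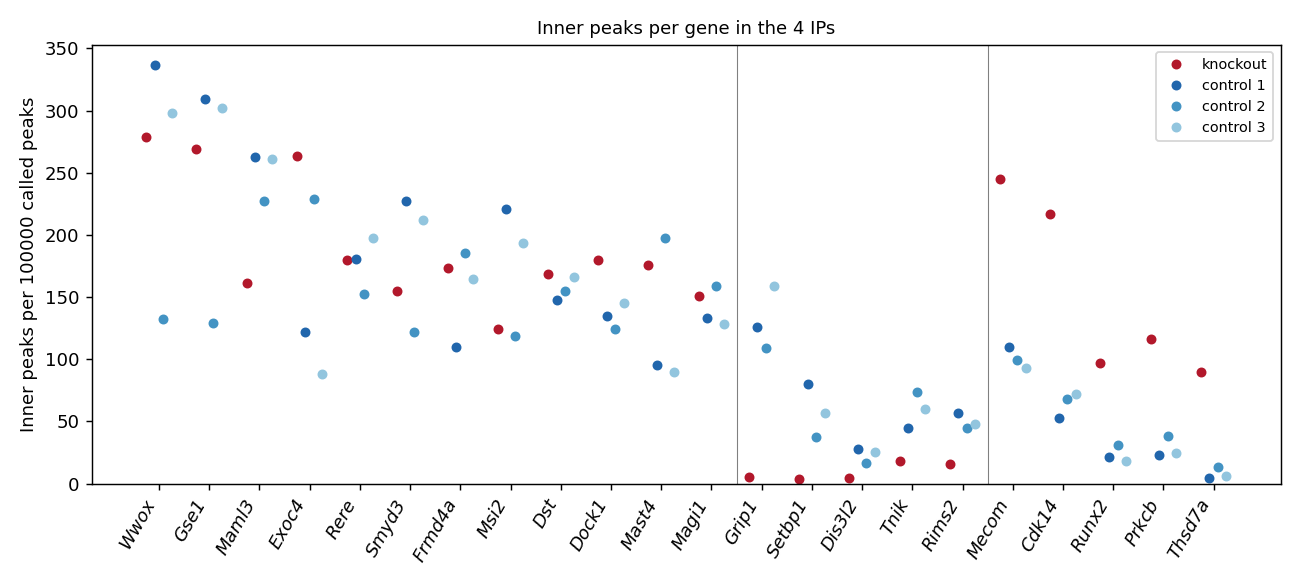
Inner peaks per 100000 called peaks (y axis) in each of the 4 IPs, for the 12 long genes with most peaks, then 5 genes picked for low and 5 picked for high knockout values. The knockout lies below all controls in Grip1 (9 peaks, against 163, 168 and 194) and above them in Mecom (411, against 142, 153 and 114).

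Inner peaks of long genes had a higher log2 fold over input than those of shorter genes in the controls. The median log2 fold was 0.23 in the knockout and 1.31, 1.02 and 1.18 in controls 1 to 3. It exceeded the median for inner peaks of shorter genes by 0 in the knockout and by 0.42, 0.42 and 0.58 in the controls. An exact sign-flip test over the 4 lists gave p = 0.25. The smallest p that 4 lists allow is 0.13, or 0.25 where 1 difference is 0, as here. The folds take few distinct values, and 28.6% of the knockout peaks shared a single value, which was also the median of the shorter genes. By means, the difference was 0.23 in the knockout and 0.32, 0.23 and 0.28 in the controls, all 4 positive (exact sign-flip test, p = 0.13). Peaks below input made up 28.1% in the knockout and 10.2% ± 1.73 in the controls (SD, n = 3). For genes under 30 kb they made up 51.6% in the knockout and 25% ± 4.91 in the controls (SD, n = 3). The median width of peaks in long genes was 40 nt in the knockout and 52, 48 and 46 nt in the controls, against 42 nt in the knockout and 53, 50 and 47 nt in the controls over all called peaks.

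Against the knockout IP, the median did not separate long from shorter genes. It was equal to that of inner peaks of shorter genes in all 3 controls, a difference of 0. The mean log2 fold over the knockout IP was 1.18, 0.88 and 1.11 for long genes in controls 1 to 3. It differed from shorter genes by −0.04 ± 0.11 (SD, n = 3), positive in 2 controls and negative in 1 (exact sign-flip test, p = 1).

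Few inner peaks of long genes were strongly enriched over input. Enriched peaks had a −log10 p and a log2 fold that each reached 3, both being the authors' values. In the knockout 52 inner peaks were enriched, 0.326% of them, against a background of 0.316% of all called peaks. In control 1 there were 163, or 1.57%, against 1.02% of all called peaks. In control 2 there were 71, or 0.647%, against 1.05%. In control 3 there were 47, or 0.502%, against 0.494%. The knockout was below all 3 controls, and control 1 was far above the other 2. The difference from the control mean was −0.58 percentage points, and −0.25 without control 1. The exact two-sided permutation test gave p = 0.5. Long and shorter genes did not separate: the difference in the enriched share was 0.02 percentage points in the knockout and 0.50, −0.56 and −0.04 in the controls (exact sign-flip test, p = 0.75).

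The enriched peaks fell at 211 sites, and 52 of these were enriched in at least 2 IPs, in 22 genes. Of the 159 sites enriched in a single IP, 17 were in the knockout, 102 in control 1, 28 in control 2 and 12 in control 3. Of the 52 recurrent sites, 26 were enriched in the knockout too, and 51 had a called knockout peak. The knockout is among the IPs that define recurrence, so those 26 have a knockout peak by definition. Of all enriched peaks of long genes in controls 1 to 3, 71.2%, 62.0% and 87.2% overlapped a called knockout peak. Over input their median log2 fold reached 3.17 in the knockout and 3.95, 3.60 and 3.60 in controls 1 to 3. Against the knockout IP the medians were 0.50, −0.13 and 0.34, and the highest values were 1.72, 1.27 and 1.87. None of the 52 sites was enriched over the knockout IP in any control. Few of all long-gene peaks were either, at 0.135%, 0.173% and 0.117% in controls 1 to 3. A site could enter through a high knockout value, which favours a low fold over the knockout IP. These sites were chosen by their fold over input, and the folds over the knockout IP use the same IP libraries, so both are given as descriptions.

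**Figure D3:**
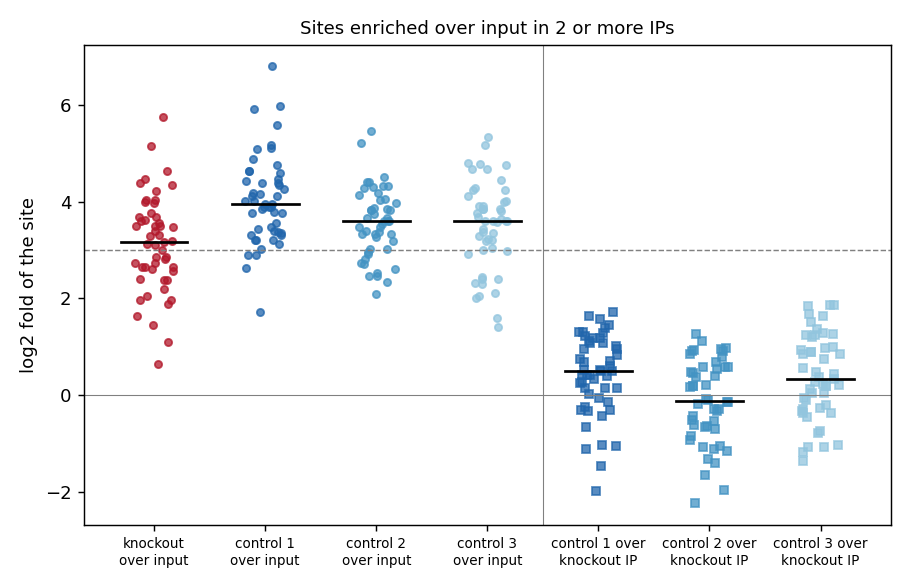
log2 fold (y axis) of the 52 sites in long genes that were enriched over input in 2 or more IPs, over input in the 4 IPs (circles) and over the knockout IP in the 3 controls (squares). Each point is a site, the black bar is the median, and the dashed line marks a log2 fold of 3. Over input the medians lie between 3.17 and 3.95, and over the knockout IP between −0.13 and 0.50.

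The 9 sites enriched in all 4 IPs lay in Maml3 and Lpp (both with more than 1 site), Camk1d, Mad1l1, Rere, Stag1 and Wdpcp. The Stag1 site, in a cohesin subunit gene, was at chr9:100718596-100718731 on the plus strand. Over input it had a log2 fold of 5.15 in the knockout and 5.99, 3.99 and 4.30 in controls 1 to 3. Over the knockout IP it was −0.15, −0.67 and −0.27, slightly below the knockout in all 3 controls. The site in Rere at chr4:150514316-150514456 on the plus strand had 4.65 in the knockout and 4.60, 4.29 and 3.58 in the controls. It had 1.72, 1.27 and 1.65 over the knockout IP, above the knockout in all 3 controls although below the threshold. The wider Lpp site, in a gene for a LIM protein of focal adhesions, was at chr16:24487360-24487761 on the plus strand. It had 4.40 in the knockout and 5.60, 3.54 and 3.37 in the controls over input, and 0.50, −1.11 and −0.29 over the knockout IP. The site in Mad1l1, a spindle checkpoint gene, had 4.35 in the knockout and 4.19, 3.60 and 3.30 in the controls.

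The site in Camk1d, a calmodulin-dependent kinase gene, at chr2:5379116-5379234 on the minus strand had 3.40 in the knockout and 4.77, 3.75 and 4.24 in controls 1 to 3. Against the knockout IP it had 0.69, −0.29 and 0.27, with both signs among the controls. The site in Wdpcp, a gene for ciliogenesis and planar cell polarity, had 4.23 in the knockout and 3.90, 3.41 and 3.84 in the controls.

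A further 12 sites were enriched in all 3 controls and not in the knockout, where their folds over input still lay between 2.06 and 3.29. The highest was in Ttc28, which encodes a tetratricopeptide repeat protein, at chr5:110936753-110937043 on the plus strand. Over input it had a log2 fold of 2.58 in the knockout and 6.81, 4.41 and 4.01 in controls 1 to 3. Over the knockout IP it was 0.52, −0.54 and 0.56, which gave no common direction. A site in Kcnip1, which encodes a protein that modulates potassium channels, lay at chr11:33754910-33754978 on the minus strand. It had 2.60 in the knockout and 5.93, 5.48 and 3.24 in the controls over input, and 1.46, 0.85 and 0.23 over the knockout IP, above the knockout in all 3. Gphn, the gene for the receptor-clustering protein gephyrin, held neighbouring sites with 2.06 and 2.86 in the knockout. Its first site had 3.40, 3.66 and 3.60 in the controls, and its second had 4.36, 4.51 and 3.22.

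The highest enriched knockout peaks were also examined, and since they were picked for their height in the knockout, lower values in the controls follow in part from that choice. Of these, Smyd3 had 5.77, Stag1 5.15, Rere 4.65, Dock3 4.53 and Prkca 4.48 over input. At the Smyd3 site, chr1:179238695-179238953 on the minus strand, controls 1 to 3 had 3.95, 2.74 and 3.44. Set against the knockout IP, they had −0.07, −1.96 and −0.11, all below the knockout. The Prkca site, in a protein kinase C gene, at chr11:108261885-108262138 on the minus strand had 3.31, 4.06 and 2.40 in the controls. The folds over the knockout IP were −1.47, −1.07 and −1.07, with all 3 controls below the knockout.

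Maml3 held 13 of the 52 recurrent sites, more than any other long gene, followed by Smyd3 with 5 and Camk1d and Lpp with 4 each. The Maml3 sites lay in groups near 48.5, 97, 141 and 339 kb from the gene start. The site at chr3:51766373-51766493 on the minus strand, 339 kb from the start, had 3.14 in the knockout and 4.64, 3.02 and 3.64 in controls 1 to 3. The site at chr3:52008397-52008541, 96.8 kb from the start, had 3.78 in the knockout and 3.12, 4.19 and 4.68 in the controls. The folds of these sites over the knockout IP were 0.60, −0.64 and 0.04, and 1.09, −0.34 and 1.29. The site at chr3:51964163-51964413, 141 kb from the start, had 2.40 in the knockout and 5.17, 4.31 and 4.79 in the controls. Over the knockout IP it had 1.18, 0.91 and 0.97, above the knockout in all 3 controls and below the threshold. Over all Maml3 peaks the median fold over input (log2) was 0.65 in the knockout and 1.64, 1.34 and 1.18 in the controls.

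**Figure D4:**
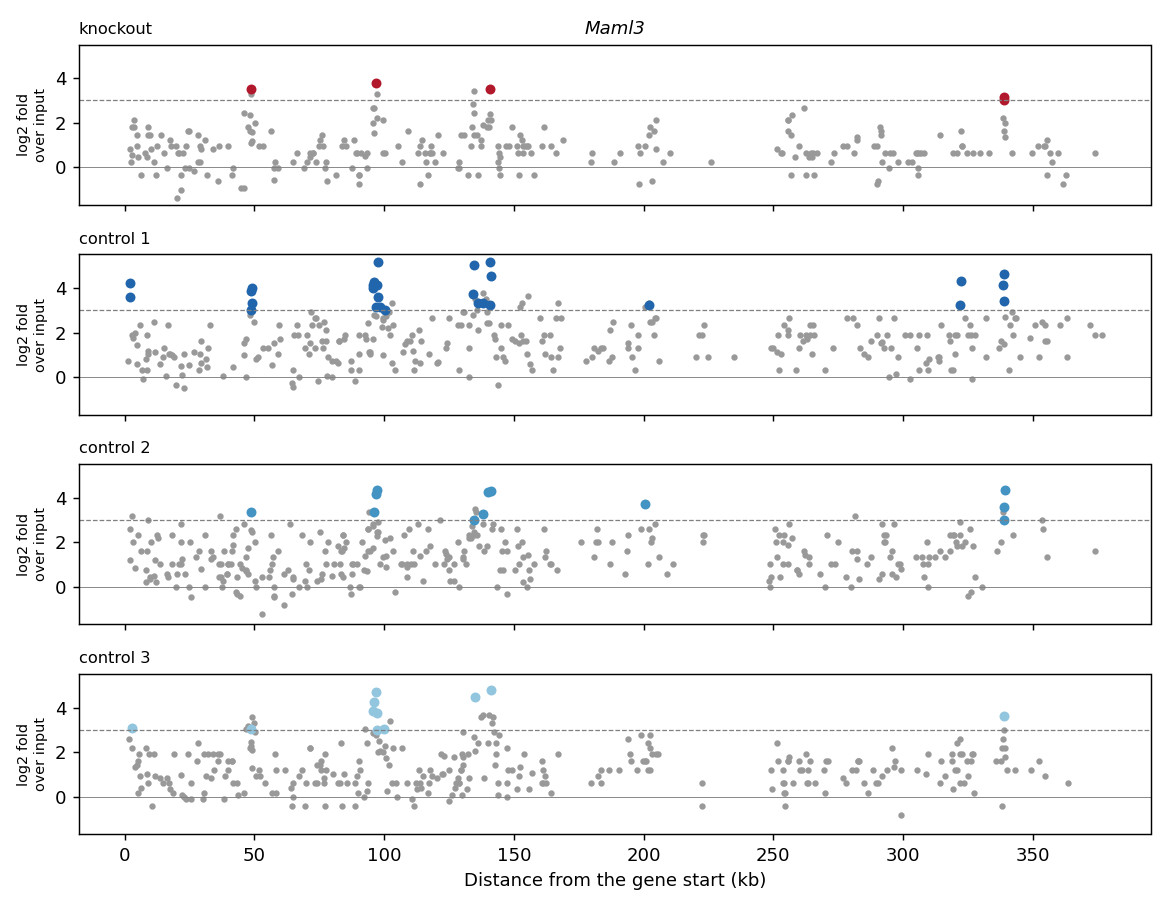
log2 fold over input (y axis) of all inner peaks of Maml3 by distance from the gene start (x axis, kb), with the knockout above controls 1 to 3. Coloured points are enriched peaks, grey points are other peaks, and the dashed line marks a log2 fold of 3. Enriched peaks gather at the same distances in the 4 IPs, near 97 and 339 kb among others.

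Enrichment over the knockout IP was rarer in long genes than in genes of any shorter band. It held for 14 inner peaks in control 1, or 0.135%, against 0.621% of all called peaks. In control 2 it held for 19, or 0.173%, against 1.09%. In control 3 it held for 11, or 0.117%, against 0.648%. The mean was 0.142% ± 0.028 for long genes, against 0.397% for genes of 100 to 300 kb, 0.960% for genes of 30 to 100 kb and 1.27% for genes under 30 kb. The difference from all inner peaks of shorter genes was −0.72 percentage points ± 0.35 (SD, n = 3), negative in 3 of 3 controls (exact sign-flip test, p = 0.25, the smallest 3 lists allow). The 3 lists share the knockout library. By the fold alone, without the p-value threshold, 1.23% of the inner peaks of long genes and 3.08% of those of genes under 30 kb reached a log2 fold of 3. Of long-gene peaks that reached the fold, few thus also reached the p-value, and the number of reads behind a peak was not in the files.

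The 44 peaks enriched over the knockout IP lay in 26 genes, and none overlapped a called knockout peak. Over all sites in long genes, 81.1% were called in a single IP, so many control peaks lack a knockout peak. A high fold over the knockout IP also favours places with little knockout signal, so the lack of overlap follows in part from the choice. Rims2 held 6, Maml3 held 5 and Mast4 held 4. The highest value in control 1 was in Rims2 at chr15:39479877-39479965, with values over the knockout IP of 4.41, 4.0 and 3.58 in controls 1 to 3. Its fold over input was 0.42, −0.53 and −0.86, above input in control 1 and below it in controls 2 and 3. This was the only enriched peak shared by controls 1 and 2 (7.14% of the 14 in control 1 and 5.26% of the 19 in control 2), and control 3 shared 0 with either. Among all called peaks, the enriched peaks of control 1 that overlapped one of control 2 made up 44% of control 1's and 22.8% of control 2's. Between controls 1 and 3 the shares were 39.6% and 40.1%, and between controls 2 and 3 they were 29.4% and 58.9%. The Maml3 peaks were all from control 3, at 3.39 to 4.58.

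Enrichment over both comparators was met at 15 places in long genes, each in a single control. In control 1 there were 4, in Rims2, Setbp1 and Zfp536. In control 2 there were 11, in Dst, Mast4 and Syne1 with 2 each, and in Frmd4a, Ltbp1, Macf1, Rere and Sema5a. Control 3 had 0. In Dst a further control passed the fold over both comparators at the first site, without reaching the p-value. At chr1:34299592-34299673 on the plus strand, Dst had no called knockout peak and 1.73, 4.23 and 3.06 over input in controls 1 to 3, with 2.01, 4.51 and 3.04 over the knockout IP. At chr1:34302689-34302763 it had 1.12, 3.82 and 1.77 over input and 1.82, 3.52 and 2.17 over the knockout IP. The highest value was in Syne1, which encodes the nuclear envelope linker nesprin-1, at 5.05 over the knockout IP and 4.77 over input in control 2. No peak of the other IPs overlapped it. The 2 Syne1 places adjoin and form 1 site, and at the other place control 1 had 2.31 over input and 1.60 over the knockout IP.

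No place in long genes met both criteria in at least 2 controls, while 203 did in the whole series. Inner peaks of genes of 100 to 300 kb gave 25 such regions, those of 30 to 100 kb gave 84, and those under 30 kb gave 79. Per 10000 called control peaks of the same band this was 0 for long genes, then 8.35, 19.8 and 32.6. With the fold threshold lowered to a log2 of 2 for both comparators, the count was 0 for long genes, and 32, 124 and 114 in the shorter bands. The −log10 p threshold stayed at 3 there, which few long-gene peaks that reached the fold also met. A lower p-value threshold was not tried, so the 0 may rest on that threshold.

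Sites were mostly called in a single IP in every band, at 81.1% for long genes and 78.6%, 74.2% and 70.0% for genes of 100 to 300 kb, 30 to 100 kb and under 30 kb. Of the 36589 sites in long genes, 29683 were called in 1 IP, 4941 in 2, 1387 in 3 and 578 in all 4. The share in all 4 was 1.58% for long genes, against 2.48%, 3.71% and 5.08% in the same shorter bands. The knockout alone held 11378 sites, and the 3 controls alone held 6059, 6779 and 5467. Sites called in the 3 controls without the knockout numbered 329. Sites called in the knockout and 2 controls numbered 394, 369 and 295, so sites that lacked the knockout were about as many as sites that lacked 1 control. The knockout list is the longest, so these counts are not on equal terms. In genes of 100 to 300 kb, 1317 sites lacked the knockout, against 1347, 1045 and 1092 that lacked 1 control. The counts were 2534, against 2041, 1503 and 1822, for 30 to 100 kb, and 1701, against 1372, 863 and 1198, under 30 kb. The 578 sites lay in 95 genes, led by Dst with 75, its relative Macf1 with 34, Utrn (utrophin) with 32, Maml3 with 27 and Rere with 26. At these sites the median fold over input (log2) was 0.33 in the knockout and 1.05, 0.75 and 0.60 in controls 1 to 3.

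Nearly all inner peaks with a known gene strand lay on the sense strand. The strand was known for 404 of the 531 long genes. Antisense peaks numbered 6 of 13005 in the knockout, and 14 of 8100, 8 of 9098 and 14 of 7321 in controls 1 to 3. The sense share was thus 99.95% in the knockout, against 99.85% ± 0.06 in the controls (SD, n = 3; exact permutation test, p = 0.25).

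Along long genes the sense peaks were densest near the 5′ end. The first 10% of the span held 15.0% of them in the knockout and 14.4%, 14.4% and 15.1% in controls 1 to 3, and the last 10% held 6.89% in the knockout and 7.30%, 9.41% and 7.10% in the controls. The 20% of the span nearest the 5′ end held 26.6% in the knockout and 26.5% ± 1.01 in the controls, where an even spread would give 20% (SD, n = 3; exact permutation test, p = 1). In genes of 100 to 300 kb this stretch held 23.4% in the knockout and 20.6% ± 1.51 in the controls. In genes of 30 to 100 kb it held 18.2% in the knockout and 15.4% ± 1.32 in the controls. In genes under 30 kb, of which the 1000 nt margin removes a larger part, it held 12.5% in the knockout and 11.3% ± 0.646 in the controls. The lean towards the 5′ end was thus larger in long genes in all 4 IPs, and in long genes the knockout did not differ from the controls beyond their spread. In each of the 3 shorter bands the knockout share lay above all 3 controls (exact permutation test, p = 0.5 in each).

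**Figure D5:**
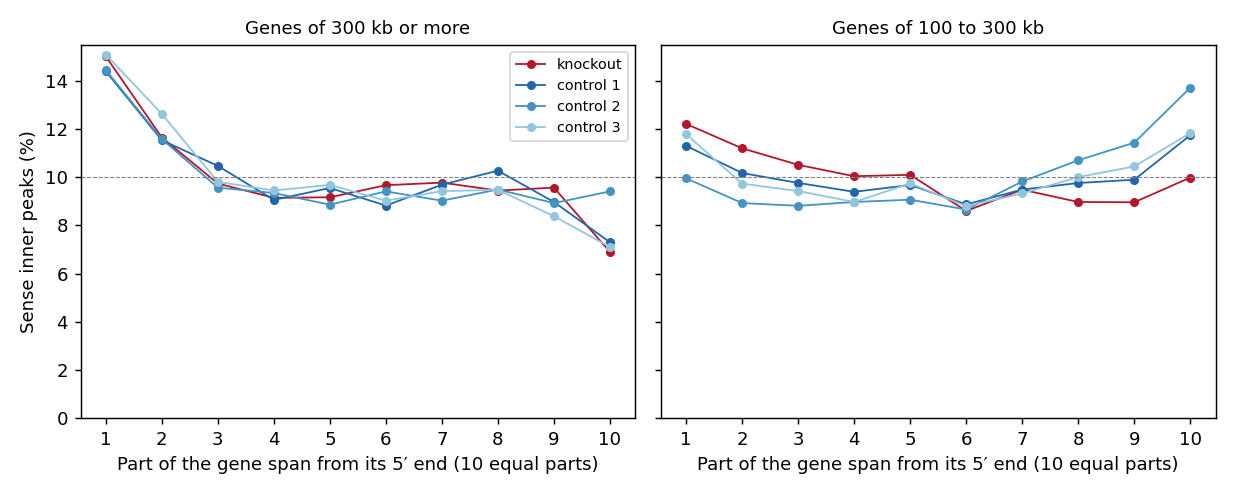
Share of sense inner peaks (y axis, percent) in each of 10 equal parts of the gene span from its 5′ end (x axis), for genes of 300 kb or more and of 100 to 300 kb, in the 4 IPs. The dashed line marks an even spread of 10%. In long genes the first part holds between 14.4% and 15.1% in every IP.

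By median log2 fold over input, the gene groups that follow had 0.23 to 0.45 in the knockout. Cytoskeleton genes had 0.23 in the knockout and 0.90, 0.60 and 0.60 in controls 1 to 3, against 0.23 and 1.31, 1.02 and 1.18 over all inner peaks of long genes. Neuronal adhesion genes had a median over the knockout IP of 1.82, 1.30 and 1.86 in the controls, against 1.18, 0.88 and 1.17 over all inner peaks of long genes. A gene can stand in more than 1 group. The knockout list is the longest, so the knockout counts below are also read as shares, in peaks per 100000 called peaks. By share, all inner peaks of long genes together also lay above all 3 controls. They made up 9.53% of called peaks in the knockout and 8.02%, 7.14% and 7.66% in the controls. A group share above all 3 controls thus does not by itself set that group apart. The groups differed in how many of their long members had inner peaks. Over all long genes, 277 of 531 had an inner peak in at least 1 IP, and a group near this share does not stand apart. All 9 long genes of membrane traffic had them in all 4 IPs, with 922 peaks in the knockout and 548, 719 and 393 in controls 1 to 3. Per 100000 this was 550 in the knockout and 424, 468 and 321 in the controls, with the knockout above all 3. Besides Exoc4, Vti1a, a SNARE of vesicle fusion, had 182 in the knockout and 169, 123 and 113 in the controls, a share inside the control range. None of the membrane traffic peaks was enriched over input or over the knockout IP, where few of all long-gene peaks were (0.326% in the knockout and 1.57%, 0.647% and 0.502% in the controls over input, and 0.135%, 0.173% and 0.117% over the knockout IP). Vps13b, a lipid transfer protein gene, and Trappc9, a subunit of the TRAPP tethering complex, followed with 231 and 201 over the 4 IPs.

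Of 20 long genes for transcription and chromatin, 16 had peaks, 1824 in the knockout and 1303, 1027 and 1194 in controls 1 to 3. The share was 1088 per 100000 in the knockout and 1008, 668 and 976 in the controls, with the knockout above all 3. Enriched peaks over input numbered 11 in the knockout and 23, 9 and 8 in the controls, or 0.603% in the knockout and 1.77%, 0.876% and 0.670% in the controls. These shares were each above those of all long-gene peaks just given, by small counts in few genes. Of the 11 in the knockout, Rere and Smyd3 held 5 each, and of the 23 in control 1, Smyd3 held 10, Zfhx3 7 and Rere 3. The higher shares thus rest on these genes and not on the group as a whole. Over the knockout IP there were 4, 1 and 0, or 0.307%, 0.0974% and 0%, on both sides of the long-gene shares. Zfhx3, a homeobox and zinc finger gene, had 249 in the knockout and 170, 154 and 167 in the controls, a share above all 3. Of 8 long genes for RNA-binding proteins, 5 had peaks, 642 in the knockout and 481, 500 and 479 in the controls. Per 100000 this was 383 in the knockout and 372, 325 and 392 in the controls, inside the control range. Rbms3, which encodes a binder of single-stranded nucleic acid, had 228 in the knockout and 64, 199 and 112 in the controls, and Fto, an RNA demethylase gene, had 184 in the knockout and 125, 114 and 130 in the controls. Both shares were above all 3 controls, by little in Fto (110 per 100000 in the knockout, against 106 in control 3) and, in Rbms3, with control 2 close below (136 against 129).

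Of 23 long genes for kinases, phosphatases and phosphodiesterases, 14 had peaks, 1325 in the knockout and 664, 1011 and 579 in controls 1 to 3. Per 100000 this was 790 in the knockout and 513, 657 and 473 in the controls, with the knockout above all 3. Enriched peaks over input numbered 15 in the knockout and 18, 10 and 3 in the controls, or 1.13% in the knockout and 2.71%, 0.989% and 0.518% in the controls. Those over the knockout IP numbered 0, 5 and 1, or 0%, 0.495% and 0.173%. Over input each share was above that of all long-gene peaks, in control 3 by little, and over the knockout IP controls 2 and 3 were above and control 1 below. The 15 enriched knockout peaks lay in Prkca (8), Mast4 (4) and Camk1d (3), so that share too rests on few genes. Prkce, a protein kinase C gene, had 231 in the knockout and 207, 82 and 181 in the controls, a share inside the control range. Camk1d had 292 in the knockout and 52, 150 and 57 in the controls, a share above all 3.

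Of 13 long genes of the cytoskeleton, focal adhesion and matrix, 8 had peaks, 965 in the knockout and 613, 873 and 693 in controls 1 to 3. The share was 576 per 100000 in the knockout and 474, 568 and 567 in the controls, above all 3 but close to controls 2 and 3. Utrn, the dystrophin-related utrophin, had 157 in the knockout and 95, 181 and 88 in the controls, a share inside the control range. Lpp had 176 in the knockout and 101, 143 and 110 in the controls, a share above all 3. Of 6 long receptor tyrosine phosphatase genes, 3 had peaks, 405 in the knockout and 155, 145 and 128 in the controls. Per 100000 this was 242 in the knockout and 120, 94.3 and 105 in the controls, with the knockout above all 3. Most were in Ptprg, with 296 in the knockout and 154, 101 and 128 in the controls, also above all 3 by share.

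Long genes typical of neurons mostly had none. Of 28 long ion channel and synaptic receptor genes, 5 had peaks, 98 in the knockout and 51, 176 and 46 in controls 1 to 3. Kcnq5, a potassium channel gene, accounted for 56 in the knockout and 34, 147 and 32 in the controls, and by share both the group and Kcnq5 lay inside the control range. Of 25 long genes of neuronal adhesion and guidance, 7 had peaks, 165 in the knockout and 219, 119 and 208 in the controls. Tenm3, a teneurin of synaptic targeting, had 81 in the knockout and 146, 68 and 148 in the controls, and both the group's share and its own lay inside the control range. Of 9 long cadherin and catenin genes, 2 had peaks, 29 in the knockout and 0 in each control. Cdh13 held 27 of these peaks and Ctnna3 held 2, so this count rests almost wholly on Cdh13. Of 22 long common fragile site genes, 17 had peaks, 1643 in the knockout and 1035, 1162 and 881 in the controls. Per 100000 this was 980 in the knockout and 800, 756 and 720 in the controls, with the knockout above all 3.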

How the data were processed

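The authors deposited 7 peak lists, whose build is mm10 per the submitters' processing notes. Each peak has a deposited −log10 p-value and a deposited log2 fold of the IP over its comparator, identified from the values and the layout. Nothing on aligner, caller or duplicate handling is given in the sources used here. The deposited −log10 p was 0 at every peak with a negative fold. Peaks were assigned by midpoint to RefSeq gene spans (GRCm38.p6). Strand came from the RefSeq promoter table, which lacks 127 of the 531 long genes.

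Shorter genes under the same inner rule served for comparison. Site values are the highest log2 fold of a library's peaks. Peaks of a control overlapping by at least 1 nt counted as enriched over both comparators. Tests were exact permutations or sign flips over libraries (Python 3.11.15, NumPy 2.4.6, pandas 2.3.3), tested on simulated data. Named genes were the 12 with most peaks, the 5 highest in the knockout, up to 4 per gene list, and those at the span threshold. Others were chosen after their values were seen, including genes of recurrent sites. The members and the 11 gene lists were chosen with earlier results of these data known, and 1 of these lists is not reported here. Alternatives were other spans, margins, thresholds and overlaps, and leaving out each control.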

Additional observations from a re-analysis of the deposited data

Results flagged for a closer look

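The median log2 fold over input of a gene's inner peaks was below 0 in the knockout and above 0 in all 3 controls for 4 of the 118 long genes with at least 30 peaks in 1 IP. The difference was not tested beyond the sign. In Dst it was −0.0443 in the knockout and 0.73, 0.43 and 0.44 in controls 1 to 3. In Macf1 it was −0.216 in the knockout and 0.68, 0.43 and 0.18 in the controls. In Snd1, a Tudor and nuclease domain gene, it was −0.0311 in the knockout and 0.64, 0.60 and 0.18 in the controls. In Ltbp1, a gene for a protein that binds latent TGF-beta, it was −0.0311 in the knockout and 1.90, 0.60 and 0.18 in the controls. Over all inner peaks of long genes the knockout median was also the lowest, at 0.23, against 1.31, 1.02 and 1.18 in the controls. How many shorter genes had a median below 0 in the knockout alone was not counted. Over all inner peaks of genes under 30 kb the median was −0.03 in the knockout and 0.80, 0.60 and 0.33 in the controls. That pooled median had the same signs, and whether the pattern in single genes is particular to long genes was not tested.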

How the results depend on the processing

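Of 54 alternative values, 43 moved by no more than 1 SD of the controls (for counts, by no more than 1.5 times), and 11 moved further. The sign of the 5′-end difference changed without control 1 and without control 2, and that of the difference over the knockout IP, 0 by medians, depended on the measure. The difference in share of called peaks, knockout minus control mean, was 1.92 percentage points at 300 kb, 3.19 at a span of 200 kb or more and 0.76 at 500 kb or more, and 1.69 to 2.13 without each control. The enriched share, knockout minus control mean, was −0.58 points, and −0.78 to −0.25 without each control. The share enriched over the knockout IP, long minus shorter genes, was −0.72 points, −0.34 at a log2 fold of at least 4, −0.36 at a −log10 p of at least 5 and −1.15 without a p-value threshold (added after the data were seen). Without each control it was −0.86 to −0.52. The median log2 fold over input, long minus shorter genes, was 0.47 in the controls, 0.67 from medians per gene and 0.28 from means (added later). Without each control it was 0.42 to 0.50. Over the knockout IP the same difference was 0, with 0.0253 from medians per gene and −0.0397 from means, and 0 without each control. The sense share, knockout minus control mean, was 0.10 points, 0.0377 at 200 kb or more and 0.0439 at 500 kb or more, and 0.08 to 0.14 without each control. The share in the 20% of the span nearest the 5′ end differed by 0.10 points, by −0.21 without control 1, −0.16 without control 2 and 0.68 without control 3, all smaller than the SD of the 3 controls. Sites enriched over both comparators in at least 2 controls numbered 0. A log2 fold of at least 2, with the −log10 p threshold kept at 3, was the alternative that could raise this count. It was 0 there, and a lower −log10 p was not tried. The others, without each control included, can only keep or lower it and gave 0. The cause of these moves was not tested. No paired analysis was possible because there is a single knockout library. Read depth is unknown. The permutation p-values set 1 knockout library against 3 control lines, and the sign-flip p-values reflect how alike the differences were over lists.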

Other observations

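A few long genes had inner peaks in control 2 and the knockout but 0 in controls 1 and 3. They were picked after their values were seen, and nothing was tested on them. Magi2, a synaptic scaffold gene, had 116 in the knockout and 0, 77 and 0 in controls 1 to 3. Ptprm, a receptor tyrosine phosphatase gene, had 64 in the knockout and 0, 43 and 0 in the controls. Arhgap24, which encodes an inactivator of Rac, had 64 in the knockout and 0, 48 and 0 in the controls. Cacnb2, a calcium channel subunit gene, had 176 in the knockout and 0, 37 and 0 in the controls. Pde4b, a phosphodiesterase gene, was different, with 8 in the knockout and 0, 37 and 0 in the controls.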
